A study of Mus musculus with 22 samples.

Results

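Whole-cochlea RNA of adult mice was set against that of mice before or at the onset of hearing. The comparison rests on the 9 input libraries of the series that are adult or young, out of 22 libraries in all, and on every gene identifier in them. The adult group holds 5 libraries, 2 from mice of 6 weeks and 3 from mice of 10 weeks. The young group holds 4 libraries, 2 from P8 and 2 from P14 (P, postnatal day). Members were chosen by the titles of the libraries alone, and the 2 input libraries of P28 were kept out of every test and are given beside the results. All mice, adult and young, carried the same alleles, PrestinCreERT2/+;RiboTagHA/+, in which a tamoxifen-inducible Cre made from the prestin locus switches on a tagged form (HA) of the ribosomal protein gene Rpl22 in outer hair cells. All mice also received tamoxifen, at 3 mg per 40 g of body weight below the age of 21 days and at 9 mg per 40 g from that age on, so that age and dose cannot be told apart between adult and young mice. Input libraries are total RNA of the whole cochlea taken without antibody, so that they hold every cell type left in the dissected piece. The sex of the mice and the number pooled for a library are not given in the labels. The design text calls the replicates independent biological duplicates or triplicates, on which the p-values here rest.

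The mouse cochlea is immature at birth, and at P8 the animal does not yet hear. During the following weeks the sensory epithelium takes its final shape, the tectorial membrane that covers the hair cells is completed by supporting cells, the stria vascularis and the fibrocytes of the lateral wall come to maintain a potassium-rich endolymph, and the neurons of the spiral ganglion acquire the myelin and the fast ion channels that carry precisely timed spikes. The cochlea lies in the otic capsule, which forms as cartilage and becomes bone, and much of the collagen laid down early in life turns over slowly.

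Gene identifiers are those of the files, with coordinates on GRCm38. Values are CPM, reads of a gene scaled to a common library total, recomputed over gene rows without Gm42418, a row that takes reads of ribosomal RNA and held 3.62 to 18.6% of gene reads in adult libraries and 2.81 to 58.3% in young ones. After that, 17170434 to 28104067 reads per adult library and 8199831 to 38785388 per young library were left. A pair of young libraries stood apart. P8 input 2 was the library with 58.3% of gene reads in Gm42418 and the fewest reads used, and its 10 most abundant genes took 37.5% of the rest. P14 input 1 had 13908 genes at 1 CPM or more, the fewest of the 9, where adult libraries had 15417 to 15931. Results that depend on this pair are given with and without it. Among the adult libraries, those of 10 weeks differed from all others in mt-Co2 and mt-Co3. These and mt-Atp6 were listed at 0 CPM in every input library of 6 weeks and younger. mt-Atp6 did not reach 1 CPM in at least 2 of the 9 libraries and was not tested. Mitochondrially encoded messengers were therefore not compared across these ages. Each gene was tested with limma on log2(CPM + 1), and a gene was called at an adjusted p under 0.05 over the 17427 genes tested. Means are given ± SD over the 5 adult and the 4 young libraries. A log2 change is adult minus young and is given relative to the median gene, which lay at 0.19, and it understates the change of genes with few reads.

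Of the 17427 genes, 1220 were higher in adult cochleae (7.0%) and 562 were lower (3.22%), together 10.2%. Every adult library lay above every young one for 1790 genes (10.3%) and below every young one for 785 genes (4.50%). Of the genes called, 1055 of those higher and 503 of those lower had groups that did not overlap. The called changes were unevenly spread over 46 lists of genes with known roles in the cochlea and its neighbours. Lists of matrix, cartilage and bone held members that fell, up to 16 of 23 basement membrane genes tested. Several of the matrix and cartilage lists share genes, so that their counts are not separate. The interferon and spiral ganglion lists held members that rose, 13 of 23 and 14 of 28. The 29 genes of nuclear oxidative phosphorylation tested held none that was called by limma, with 15 higher when P8 was the only young age, where 18.1% of all genes were. In these bulk samples a smaller number of cells of a type and less RNA per cell cannot be told apart. The balance of higher against lower genes moved with scaling and with the pair of libraries that stood apart, to 1043 higher (5.98%) and 933 lower (5.35%) with TMM scaling and to 859 higher (5.07%) and 977 lower (5.76%) without P8 input 2 and P14 input 1. edgeR called 618 genes higher (3.55%) and 937 lower (5.38%), and DESeq2 1304 higher (7.48%) and 1524 lower (8.75%).

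**Figure D1:**
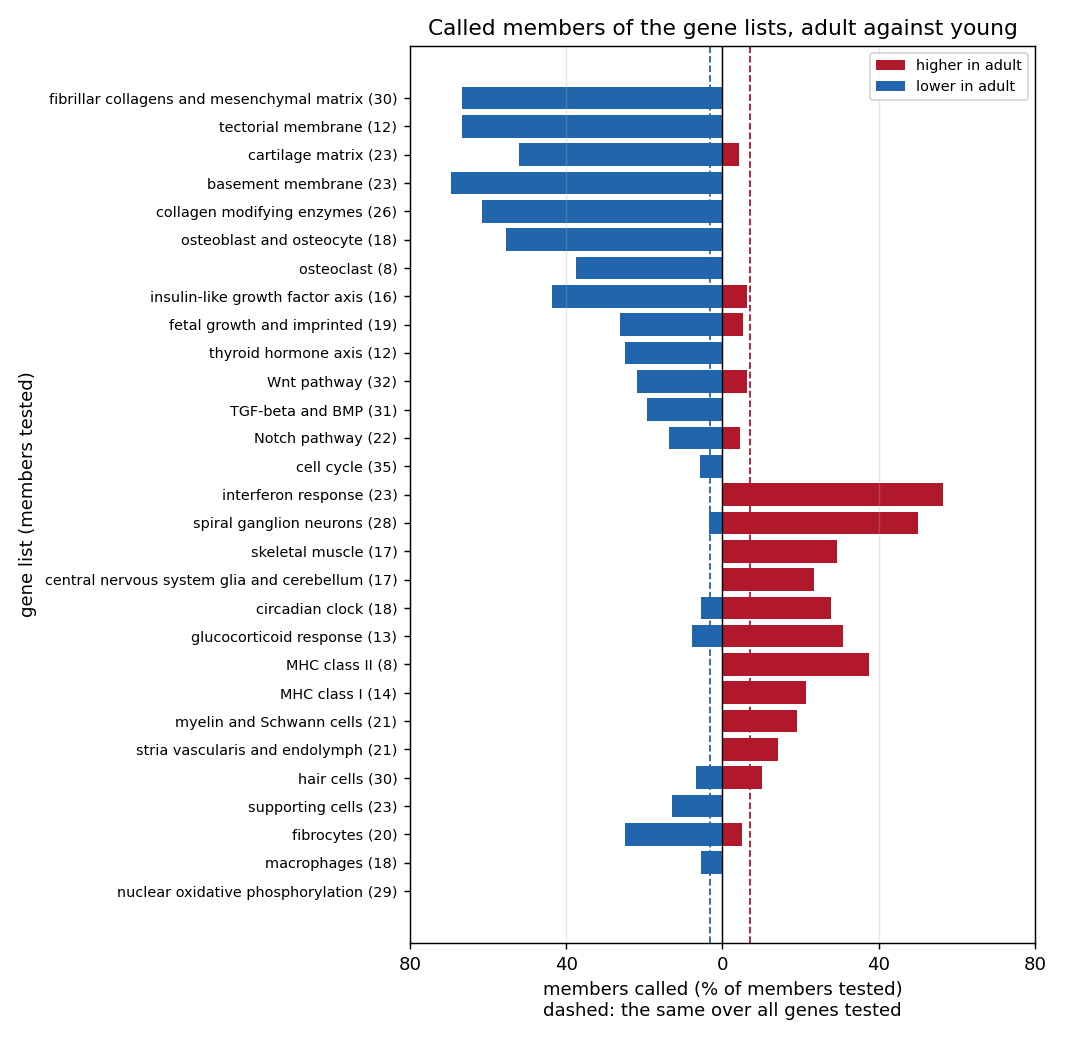
Share of the tested members of 29 of the 46 gene lists called higher in adult (bars to the right) or lower in adult (bars to the left) in the limma test, with the number of members tested in brackets; dashed lines mark the same shares over all genes tested, 7.0% and 3.22%. Matrix, cartilage and bone lists extend to the left, and the interferon and spiral ganglion lists to the right.

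The genes by which the comparison is labelled are Col2a1, Slc4a11 and Ceacam16, and they behaved in different ways. Col2a1 (ENSMUSG00000022483, chr15:97975602-98004695, minus strand) encodes the chain of type II collagen, the main fibre of cartilage and of the tectorial membrane. Col2a1 had 118 and 107 CPM at 6 weeks and 62.0, 60.8 and 59.7 CPM at 10 weeks, against 20805 and 13844 CPM at P8 and 6537 and 4857 CPM at P14. The groups did not overlap, and the log2 change of -7.15 (SE 0.40, adjusted p = 8.17e-07) was the largest fall among the genes named here at a pseudocount of 1. Oc90 fell farther with a pseudocount of 0.25, and Oc90, Tmprss9 and Tectb fell farther by edgeR and DESeq2. Slc4a11 (ENSMUSG00000074796, chr2:130684113-130697519, minus strand) encodes a membrane transporter of the fibrocytes of the lateral wall. Slc4a11 had 2911 and 2032 CPM at 6 weeks and 2372, 2900.2 and 2232 CPM at 10 weeks, against 6.91 and 18.2 CPM at P8 and 1094 and 1483 CPM at P14. The groups did not overlap, and on the log2 scale most of the distance lay between P8 and P14. The log2 change was 4.11 (SE 1.24, adjusted p = 0.0434). The call was lost without any 1 of the adult or P8 libraries (adjusted p up to 0.135) and without the pair that stood apart (adjusted p = 0.0820). It was also lost with TMM scaling (adjusted p = 0.0609), by edgeR (adjusted p = 0.342) and by DESeq2 (adjusted p = 0.313). Ceacam16 (ENSMUSG00000014686, chr7:19852097-19861299, minus strand) encodes a secreted protein of the tectorial membrane that supporting cells make. Ceacam16 had 712 and 519 CPM at 6 weeks and 473, 539.5 and 487 CPM at 10 weeks, against 4.33 and 8.66 CPM at P8 and 981 and 1283 CPM at P14. The adult libraries lay below both P14 libraries and above both P8 libraries, and the gene was not called (log2 change 2.40, SE 1.34, adjusted p = 0.233). Against P14 alone it was lower in adults by 1.05 on the log2 scale, before subtraction of the median gene (adjusted p = 0.00801). The largest step of Ceacam16 lay between P8 and P14. Coch, which encodes the abundant secreted cochlin of the spiral ligament and limbus, also had its largest step there. Coch had 11648 and 9233 CPM at 6 weeks and 10825, 11696 and 10369 CPM at 10 weeks, against 765 and 658 CPM at P8 and 8813 and 10697 CPM at P14. Adult and P14 libraries overlapped, and Coch was not called (adjusted p = 0.144).

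**Figure D2:**
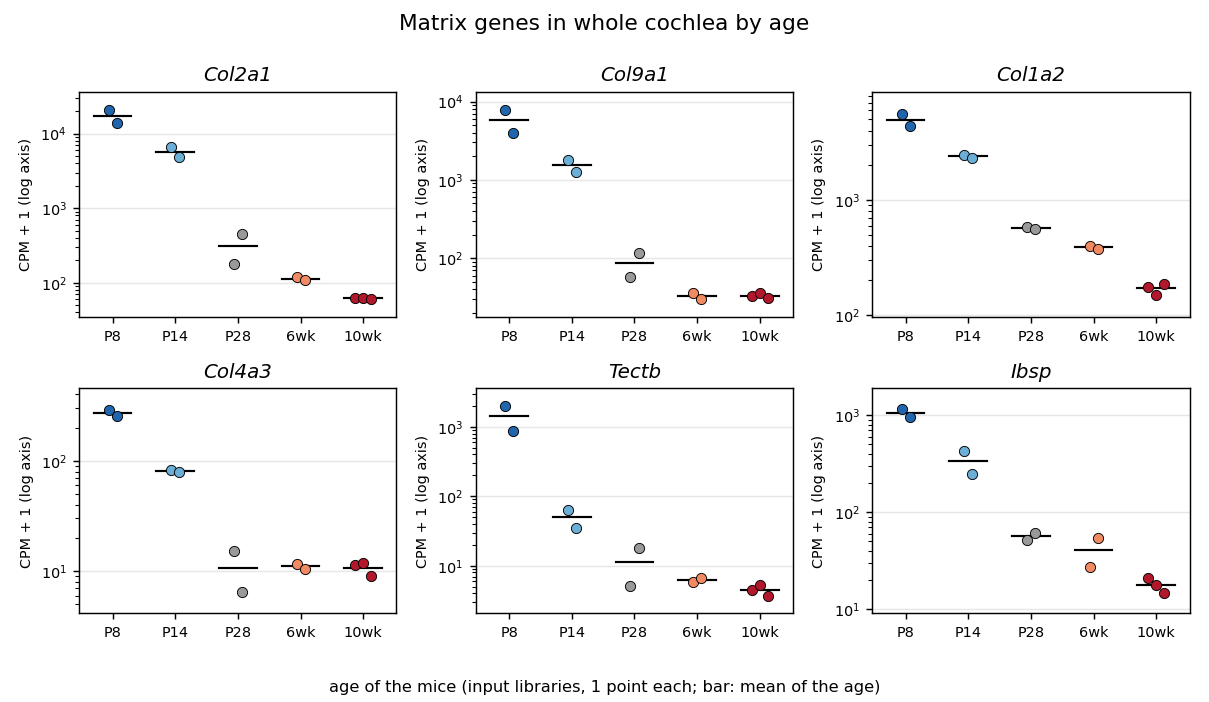
CPM + 1 on a log axis in every input library by age (P8, P14, P28, 6 and 10 weeks), 1 point per library and a bar at the mean of the age, for 6 matrix genes. All 5 adult libraries lie below all 4 young ones in each panel, and the P28 libraries, which were in no test, lie below P14.

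Collagen genes fell across the family. The files held 44 genes named as collagen chains, a family picked by symbol after its values were seen; 40 were tested, 29 were lower in adults and 1 was higher, with a median log2 change of -2.35. The 3 chains that fell farthest, Col2a1, Col9a1 and Col9a3, belong to the type II and IX collagens, which with type XI build the mixed fibrils of cartilage and of the tectorial membrane. Col9a1 had 34.4 and 29.5 CPM at 6 weeks and 31.9, 35.1 and 29.7 CPM at 10 weeks, against 7729.5 and 3994 CPM at P8 and 1806 and 1271 CPM at P14. The adult libraries held a narrow range far below every young one (log2 change -6.65, SE 0.40, adjusted p = 1.45e-06). Col9a3 had 92.3 and 88.4 CPM at 6 weeks and 91.3, 91.9 and 89.0 CPM at 10 weeks, against 4509 and 2442 CPM at P8 and 1934 and 1705 CPM at P14. The fall was by 4.93 on the log2 scale (SE 0.26, adjusted p = 7.45e-07), and no adult library reached a young one. Their partners Col11a1, Col9a2 and Col11a2 also fell, by 4.30, 3.44 and 3.05 on the log2 scale. Each of these chains was called whichever of the 9 libraries was left out.

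The chains of types I and III form the fibres of bone and of loose connective tissue. Col1a2 had 401 and 376 CPM at 6 weeks and 174, 149 and 187 CPM at 10 weeks, against 5559.9 and 4343 CPM at P8 and 2459 and 2332 CPM at P14. The 6-week libraries were above those of 10 weeks, and both ages lay below all young libraries (log2 change -4.05, SE 0.37, adjusted p = 5.91e-05). Col3a1 had 51.7 and 30.2 CPM at 6 weeks and 26.1, 18.9 and 15.3 CPM at 10 weeks, against 1240.0 and 927 CPM at P8 and 341 and 290.0 CPM at P14. These groups did not overlap either (log2 change -4.62, SE 0.43, adjusted p = 5.91e-05). Col1a1 had 163 and 174 CPM at 6 weeks and 27.7, 18.3 and 25.2 CPM at 10 weeks, against 543 and 1103 CPM at P8 and 451 and 484 CPM at P14. Col1a1, the partner of Col1a2 in type I collagen, was also lower in all adult libraries, with P8 input 2 far above the other young libraries (log2 change -3.69, SE 0.61, adjusted p = 0.00433). The members of the family that were not called included Col14a1, Col6a3 and Col5a3, at log2 changes of -0.82, -0.95 and -0.57. The only chain called higher, Col19a1, had 0.641 to 2.32 CPM in adult libraries and at most 0.0303 CPM in young ones, and its call was lost without P8 input 2 and P14 input 1 (adjusted p = 0.0619).

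**Figure D3:**
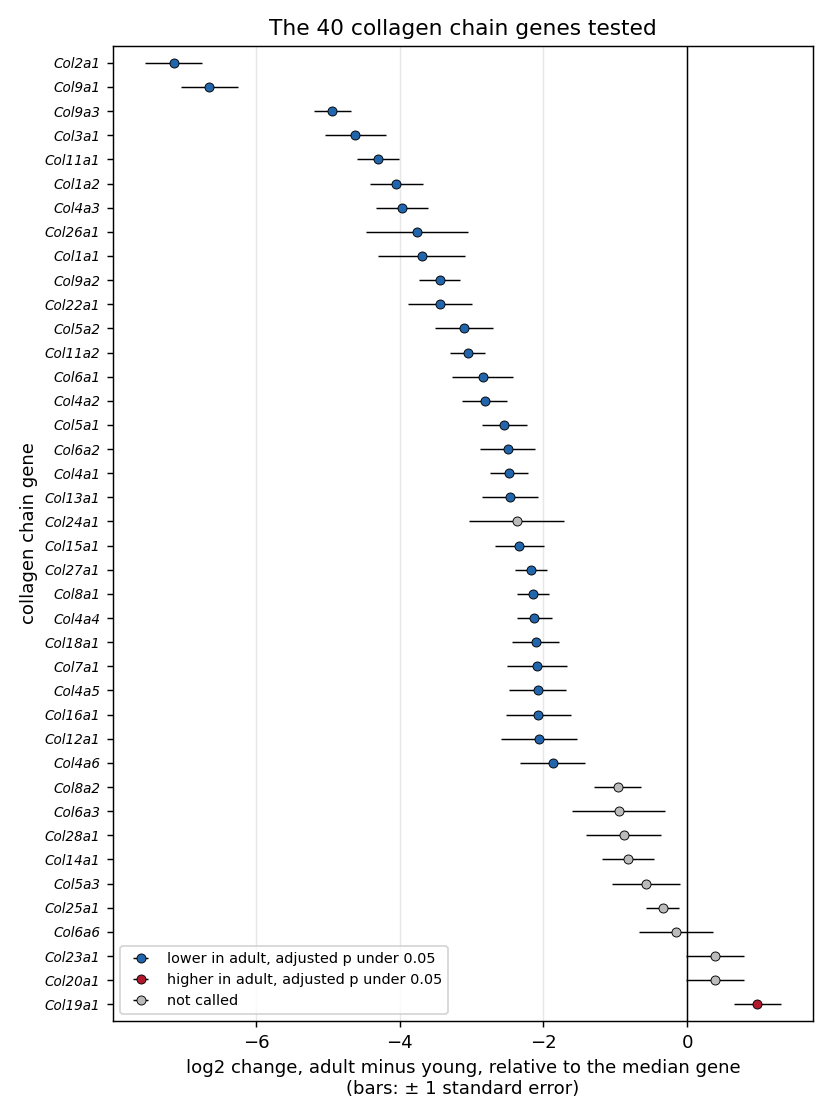
Log2 change, adult minus young, relative to the median gene, of the 40 collagen chain genes tested, sorted by size, with bars of ± 1 standard error. The 29 chains called lower lie left of the line at 0, Col2a1 farthest at -7.15, and Col19a1 is the 1 chain called higher.

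Many genes of proteins that surround, fold and cross-link collagen were also lower. Of 30 genes of fibrillar collagens and mesenchymal matrix, 20 were lower and none was higher, with a median of -2.20. All 20 also had groups that did not overlap, and leaving out 1 library at a time gave 17 to 23 lower genes. Of the 20, Col3a1, Col1a2, Col1a1, Col5a2, Col6a1, Col5a1, Col6a2, Col16a1 and Col12a1 are collagen chains already counted in the family above. Sparc, Lox, Loxl1 and Loxl2 are counted again among the genes of collagen modification below. Sparc, a collagen-binding protein of growing matrix and bone, was among the most abundant. Sparc had 1736 and 1726 CPM at 6 weeks and 1241, 1178 and 1189 CPM at 10 weeks, against 13037 and 8133 CPM at P8 and 21714 and 17319.9 CPM at P14. It was highest at P14, and the adult libraries held about 9.39% of the young mean (log2 change -3.53, SE 0.46, adjusted p = 9.46e-04). The elastic fibre genes Fbn2 (fibrillin 2) and Eln (elastin) averaged 4.74 ± 1.26 CPM in adult and 80.9 ± 62.9 CPM in young libraries and 8.25 ± 0.868 CPM in adult and 95.3 ± 48.3 CPM in young libraries. Their log2 changes were -3.66 and -3.46, and neither gene's groups overlapped.

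Among 26 tested genes of collagen modification, 16 were lower and none was higher, with a median of -1.40. These act at successive steps. Serpinh1 is the chaperone of collagen folding, and P3h1, P3h3, Plod1 and Plod2 hydroxylate the chains. Adamts2 and Bmp1 cut the ends of procollagen, and Lox, Loxl1 and Loxl2 cross-link the fibre. Serpinh1 averaged 199 ± 16.5 CPM in adult and 1059.8 ± 629 CPM in young libraries (log2 change -2.41, adjusted p = 0.00119). Adamts2 averaged 20.7 ± 2.56 CPM in adult and 180.3 ± 87.9 CPM in young libraries (log2 change -3.13, adjusted p = 5.91e-05). Lox averaged 74.3 ± 10.6 CPM in adult and 267 ± 86.5 CPM in young libraries (log2 change -1.97, adjusted p = 4.68e-04). The adult libraries of these 3 genes all lay below the young ones.

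Of 23 tested basement membrane genes, 16 were lower and none was higher, with a median of -1.48. With 1 library left out 12 to 19 were lower, with 12 without any 1 of the adult or P8 libraries. Of the 16, Col4a1 to Col4a6, Col15a1 and Col18a1 are collagen chains already counted in the family above. The lower genes include Col4a3, Col4a4 and Col4a5, whose chains form a network found in the cochlea and kidney. These are the genes of Alport syndrome, a disease of kidney and hearing. Col4a3 had 10.5 and 9.55 CPM at 6 weeks and 10.4, 10.8 and 8.00 CPM at 10 weeks, against 287 and 252 CPM at P8 and 81.5 and 79.0 CPM at P14. Adult and young libraries did not overlap (log2 change -3.97, SE 0.37, adjusted p = 5.91e-05). Col4a4 averaged 27.8 ± 3.94 CPM in adult and 114 ± 41.8 CPM in young libraries and Col4a5 17.2 ± 2.83 CPM in adult and 80.9 ± 57.3 CPM in young libraries, at log2 changes of -2.13 and -2.08. Col4a1 and Col4a2, the chains of the ubiquitous network, changed by -2.48 and -2.82. Of 11 laminin genes, 4 were lower, among them Lamc1 at -1.64, and the median over the 11 was -0.91. The calls of 2 of these 4 were lost without at least 1 library.

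The tectorial membrane list held 8 lower genes of 12 tested and none higher, with a median of -3.26, but 6 of the 8 are collagen chains already given. The others are Tectb and Otog. Tectb (ENSMUSG00000024979, chr19:55180733-55196313, plus strand) encodes β-tectorin, which with α-tectorin forms the striated sheet around the collagen fibres. Tectb had 4.80 and 5.77 CPM at 6 weeks and 3.46, 4.34 and 2.67 CPM at 10 weeks, against 1997 and 875 CPM at P8 and 63.2 and 33.8 CPM at P14. The largest step lay between P8 and P14, and P14 libraries were still above every adult one (log2 change -5.81, SE 0.92, adjusted p = 0.00314). Tecta, the gene of α-tectorin, was at a low level by P14. Tecta had 0.640 and 1.57 CPM at 6 weeks and 0.774, 0.155 and 1.09 CPM at 10 weeks, against 145 and 72.2 CPM at P8 and 1.21 and 0.305 CPM at P14. Its P14 and adult libraries overlapped near 1 CPM, and Tecta was not called (adjusted p = 0.125). Otog, which encodes otogelin, a glycoprotein that attaches the membrane to the epithelium, kept more of its level. Otog had 50.5 and 53.7 CPM at 6 weeks and 43.2, 52.1 and 40.5 CPM at 10 weeks, against 153 and 102 CPM at P8 and 68.0 and 76.9 CPM at P14. It was lower in every adult library (log2 change -1.17, adjusted p = 0.0176), and the call was lost without 10wk input 1 or 10wk input 3 (adjusted p up to 0.0551). Ceacam16 and the supporting cell gene Otoa (otoancorin) were not called, and Otoa averaged 91.9 ± 13.8 CPM in adult and 154 ± 62.2 CPM in young libraries.

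Oc90 (ENSMUSG00000015001, chr15:65876053-65912397, minus strand) encodes otoconin 90, a matrix protein of the otoconia of the vestibular organs. Oc90 had 0 and 0 CPM at 6 weeks and 0.182, 0 and 0 CPM at 10 weeks, against 209.7 and 155 CPM at P8 and 37.1 and 25.2 CPM at P14. It was at 0 in 4 of the 5 adult libraries and well detected in all young ones (fitted log2 change -6.38, adjusted p = 4.49e-05). Otor, a secreted protein of the cochlea and cartilage, and Emilin2, a matrix protein of the lateral wall list, also fell. Otor averaged 226 ± 65.1 CPM in adult and 3167 ± 2396 CPM in young libraries (log2 change -3.76, adjusted p = 2.19e-04). Emilin2 averaged 131 ± 12.9 CPM in adult and 834 ± 140.1 CPM in young libraries (log2 change -2.84, adjusted p = 3.55e-06), with the P14 libraries within the range of P8. Tmprss9, a membrane serine protease gene, and Cpz, a carboxypeptidase gene, were among the 12 largest falls. Tmprss9 had 0.581 to 1.40 CPM in adult and 37.8 to 396 CPM in young libraries. Cpz had 1.43 to 3.84 CPM in adult and 27.1 to 353 CPM in young libraries.

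Cartilage and bone genes fell in part. The cartilage list held 12 lower genes of 23 tested and 1 higher, with a median of -1.67. Most of the 12 are collagen chains already counted in the family above, and the median includes such chains. The others are Chad, Matn1, Epyc, Cnmd and Acan. Chad (chondroadherin) averaged 9.78 ± 2.32 CPM in adult and 83.5 ± 31.2 CPM in young libraries, and Acan, the main proteoglycan of cartilage, 47.5 ± 7.54 CPM in adult and 101 ± 23.8 CPM in young libraries, at log2 changes of -3.11 and -1.24. Cilp, a cartilage intermediate layer gene, was the member called higher, with 1.75 to 4.28 CPM in adult and at most 0.944 CPM in young libraries. Its call was lost without any 1 of the 10-week libraries or 6wk input 1 (adjusted p up to 0.0806).

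Of 18 tested genes of osteoblasts and osteocytes, 10 were lower and none was higher, with a median of -1.78. Ibsp (ENSMUSG00000029306, chr5:104299171-104311469, plus strand) encodes bone sialoprotein, secreted where bone is mineralising. Ibsp had 26.5 and 53.2 CPM at 6 weeks and 19.9, 16.7 and 13.7 CPM at 10 weeks, against 1164 and 949.7 CPM at P8 and 429 and 248 CPM at P14. No adult library reached a young one (log2 change -4.80, SE 0.44, adjusted p = 5.91e-05). Runx2 and Sp7, the transcription factors that make osteoblasts, averaged 4.38 ± 0.992 CPM in adult and 25.8 ± 11.2 CPM in young libraries and 3.96 ± 3.85 CPM in adult and 31.0 ± 20.0 CPM in young libraries, at log2 changes of -2.41 and -2.90. Bglap, the gene of osteocalcin, changed by -3.19, and Dmp1, an osteocyte gene, by -2.26. The summed level of the list did not follow these members, at 3576 to 4090 CPM in adult and 2125 to 4081 CPM in young libraries. Bone-resorbing osteoclasts express Ctsk, Acp5 and Mmp9, the 3 lower genes among 8 tested, and none was higher. Ctsk had 34.3 and 28.0 CPM at 6 weeks and 28.1, 27.4 and 28.9 CPM at 10 weeks, against 240.0 and 193 CPM at P8 and 127 and 157 CPM at P14. The adult libraries lay together far below the young (log2 change -2.72, SE 0.20, adjusted p = 1.42e-05). Mmp9 is also a neutrophil gene, and the other neutrophil and marrow genes held no called member.

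The insulin-like growth factor axis held 7 lower genes of 16 tested and 1 higher, with a median of -0.98. Igf1, the growth factor that carries the effect of growth hormone, averaged 243 ± 34.1 CPM in adult and 613 ± 129.6 CPM in young libraries (log2 change -1.51, adjusted p = 0.00194). Igf2, the fetal growth factor, averaged 133 ± 5.93 CPM in adult and 639.6 ± 457 CPM in young libraries (log2 change -2.15, adjusted p = 0.00676). The binding proteins Igfbp3, Igfbp4, Igfbp7 and Igfbp2 were lower, and Igfbp5, at 1139.5 ± 138 CPM in adult and 1709.6 ± 622 CPM in young libraries, was not called. Pappa, a protease that frees the factors from binding proteins, was the member called higher, at 20.4 ± 4.55 CPM in adult and 6.73 ± 3.19 CPM in young libraries (log2 change 1.35, adjusted p = 0.0145). Its adjusted p was 0.0534 without 10wk input 1.

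The imprinted RNA H19 (ENSMUSG00000000031, chr7:142575529-142578143, minus strand), transcribed beside Igf2 and abundant before birth, was among the largest falls. H19 had 10.3 and 9.26 CPM at 6 weeks and 8.42, 7.48 and 11.7 CPM at 10 weeks, against 1295 and 629.8 CPM at P8 and 301 and 73.3 CPM at P14. The young libraries spread widely, from P8 input 1 down to P14 input 2, and all were above every adult library (log2 change -5.34, SE 0.58, adjusted p = 2.16e-04). The fetal and imprinted list as a whole held 5 lower genes and 1 higher of 19 tested, with 3 lower without 10wk input 1, 10wk input 2, P8 input 2 or either 6-week library. Lin28b, an RNA-binding protein gene of early development, was the member called higher, but at low levels, with 2.17 to 4.28 CPM in adult and 0.0833 to 0.516 CPM in young libraries.

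Other developmental pathways held fewer called genes. Of 32 Wnt pathway genes 7 were lower and 2 higher, of 31 genes of TGF-β and BMP signalling 6 were lower and none was higher, and of 22 Notch pathway genes 3 were lower and 1 was higher. Of all genes, limma called 3.22% lower and 7.0% higher. DESeq2 called 13 Wnt, 13 TGF-β and BMP and 9 Notch genes lower, where 8.75% of all genes were lower. With 1 library left out, 3 to 9 Wnt genes were lower, with 3 or 4 without 6wk input 1, P8 input 1 or any 1 of the 10-week libraries. For TGF-β and BMP it was 4 to 11, the most without P14 input 1, and for Notch 1 to 6, the fewest without 10wk input 1 and the most without P14 input 1. Higher Wnt genes numbered 1 without 10wk input 2, 10wk input 3, 6wk input 1 or either P8 library. Their medians were -0.61, -0.60 and -0.50. Of the Wnt members that fell, Wif1, Notum, Sfrp1, Sfrp4 and Frzb encode secreted inhibitors, and Wnt4 and Wnt5a encode ligands. Whether inhibitors fell more often than other members was not tested. The call of Wnt5a was lost without any 1 of 6 libraries (adjusted p up to 0.0845). Wif1 averaged 10.3 ± 0.513 CPM in adult and 56.4 ± 26.4 CPM in young libraries (log2 change -2.41, adjusted p = 9.46e-04). Notum, an enzyme that inactivates Wnt ligands, averaged 14.6 ± 2.40 CPM in adult and 67.0 ± 45.7 CPM in young libraries (log2 change -2.10, adjusted p = 0.00590). Sfrp1, Sfrp4 and Frzb, which bind Wnt ligands, were also lower. The call of Sfrp4 was lost without any 1 of 8 libraries, all but P14 input 2 (adjusted p up to 0.122). That of Sfrp1 was lost without 6wk input 1, any 1 of the 10-week libraries or either P8 library (adjusted p up to 0.0941), and that of Frzb without 10wk input 1 or 3 (adjusted p up to 0.0586). Dkk3 was higher, at 399 ± 70.9 CPM in adult and 139 ± 57.8 CPM in young libraries (log2 change 1.41, adjusted p = 0.00409). The ligand gene Wnt2b was higher too, a call lost without any 1 of 5 libraries (adjusted p up to 0.0632). In the Notch list the target genes Nrarp and Hey1 and the modifier Lfng fell, by 1.77, 1.22 and 1.53 on the log2 scale. The call of Lfng was lost without any 1 of the 10-week libraries or P8 input 1 (adjusted p up to 0.0590), and that of Hey1 without 10wk input 1 (adjusted p = 0.0515).

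Thyroid hormone is required for the cochlea to mature, and type 2 deiodinase, encoded by Dio2, makes the active hormone locally. Dio2 had 37.9 and 38.1 CPM at 6 weeks and 27.2, 26.8 and 40.8 CPM at 10 weeks, against 805 and 610.0 CPM at P8 and 111 and 136 CPM at P14. The P8 libraries were the highest, P14 was intermediate, and the adult libraries were below both (log2 change -3.28, SE 0.49, adjusted p = 0.00270). Hr, a corepressor gene that responds to the hormone, averaged 27.4 ± 6.84 CPM in adult and 88.6 ± 22.3 CPM in young libraries (log2 change -1.84, adjusted p = 0.00101). Of 12 thyroid axis genes tested, 3 were lower and none was higher. The number of lower ones was 6 with TMM scaling, by edgeR and by DESeq2, where 5.35, 5.38 and 8.75% of all genes were lower. It was 5 without P14 input 1 and 6 without P14 input 2. The receptor gene Thrb, at 35.8 ± 2.69 CPM in adult and 64.0 ± 29.1 CPM in young libraries, was not called (adjusted p = 0.0772).

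Few proliferation genes were called. Of 35 cell cycle genes tested, 2 were lower (Ccna2 and Tpx2) and none was higher, with a median of -0.57, and 5 were lower without P8 input 2 and P14 input 1. Of all genes, 3.22% were lower in the main test and 5.76% without that pair. With 1 library left out 0 to 5 were lower, with 0 without any 1 of the 10-week libraries or 6wk input 1 and 5 without P14 input 1. Mki67, the usual marker of dividing cells, had 6.23 and 13.1 CPM at 6 weeks and 6.83, 4.69 and 8.81 CPM at 10 weeks, against 9.00 and 16.5 CPM at P8 and 16.9 and 30.3 CPM at P14. Adult and young libraries overlapped, and Mki67 was not called (adjusted p = 0.0979). Ccna2 had 2.96 to 6.06 CPM in adult and 9.90 to 17.9 CPM in young libraries, and its call was lost without any 1 of 4 adult libraries (adjusted p up to 0.0650).

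**Figure D4:**
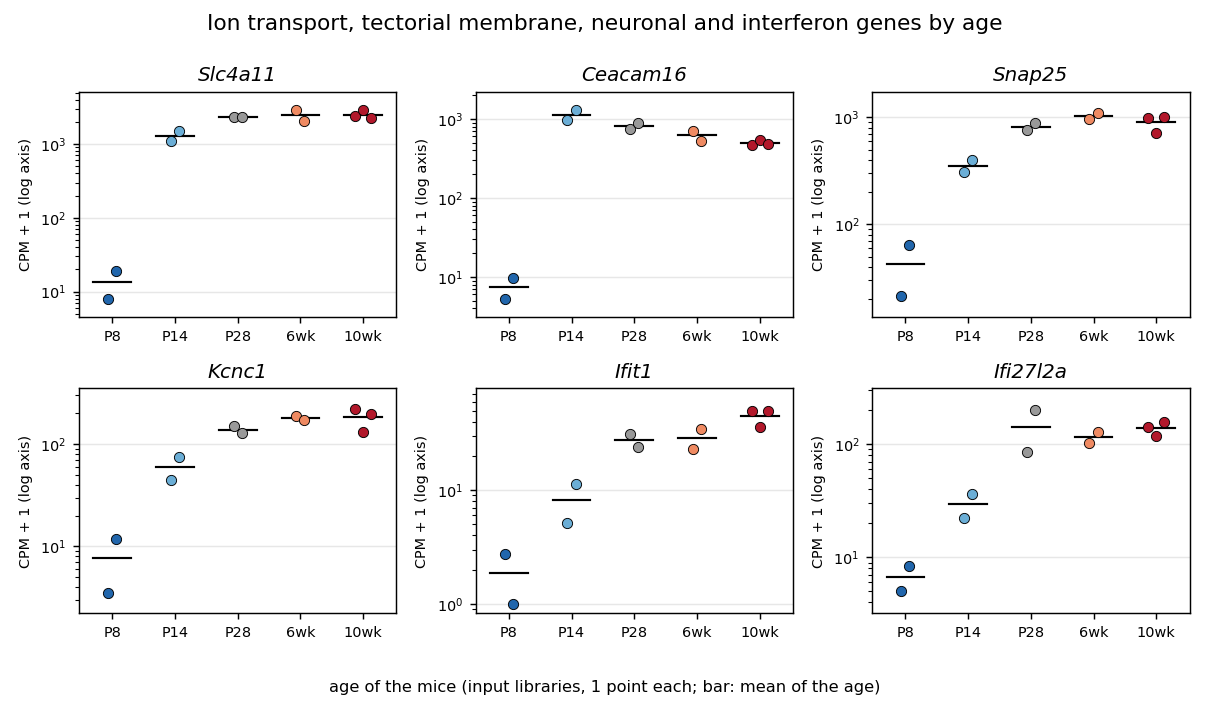
CPM + 1 on a log axis in every input library by age (P8, P14, P28, 6 and 10 weeks), 1 point per library and a bar at the mean of the age. Slc4a11, Snap25, Kcnc1, Ifit1 and Ifi27l2a are higher in all adult than in all young libraries, with P14 between P8 and the adult ages, whereas Ceacam16 is highest at P14.

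Genes of spiral ganglion neurons, which carry the signals of hair cells to the brain, held the most higher members of the 46 lists. Of 28 tested, 14 were higher and 1 was lower, with a median of 1.24. Snap25 (ENSMUSG00000027273, chr2:136713453-136782428, plus strand) encodes a protein of synaptic vesicle fusion. Snap25 had 963 and 1091 CPM at 6 weeks and 992, 714 and 1014 CPM at 10 weeks, against 20.6 and 62.7 CPM at P8 and 306 and 395 CPM at P14. Levels climbed from P8 through P14, and all adult libraries were above all young ones (log2 change 2.87, SE 0.65, adjusted p = 0.0113). Kcnc1 (ENSMUSG00000058975, chr7:46396497-46438704, plus strand) encodes Kv3.1, a potassium channel of neurons that fire at high rates. Kcnc1 had 184 and 170.2 CPM at 6 weeks and 216, 131 and 194 CPM at 10 weeks, against 2.55 and 10.9 CPM at P8 and 43.4 and 72.9 CPM at P14. The order of the ages was the same (log2 change 3.01, SE 0.64, adjusted p = 0.00892). Kcna1, a channel of myelinated axons, averaged 117 ± 16.6 CPM in adult and 34.8 ± 27.0 CPM in young libraries, at a log2 change of 1.94. Nefh, the heavy neurofilament chain, averaged 588 ± 132 CPM in adult and 173 ± 164 CPM in young libraries (log2 change 2.32, adjusted p = 0.0235), and its call was lost without either P8 library or without 10wk input 1 or 3.

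Sodium channel subunits had the same direction. Scn4b, an auxiliary subunit of these channels, was among the 12 largest rises. Scn4b had 184 and 208 CPM at 6 weeks and 255, 162 and 238 CPM at 10 weeks, against 2.37 and 11.1 CPM at P8 and 48.5 and 82.2 CPM at P14. P8 libraries were near the bottom, and adult libraries were above both P14 libraries (log2 change 3.17, SE 0.68, adjusted p = 0.00910). Scn8a, the gene of the channel of nodes of Ranvier, was higher too, with means of 105 ± 18.6 CPM in adult and 36.2 ± 24.4 CPM in young libraries. Of 11 sodium channel genes tested 3 were higher and none was lower, and of 78 potassium channel genes 19 were higher and 3 lower, with medians of 1.02 and 0.62. These families were picked by symbol after their values were seen. Of the 19 higher potassium channel genes, 7 were called whichever library was left out and 12 lost the call without at least 1, as did all 3 lower ones. The member of the neuron list that fell was Gata3, a transcription factor of neurons and supporting cells, at 107 ± 17.1 CPM in adult and 206 ± 52.7 CPM in young libraries (log2 change -1.10, adjusted p = 0.0160). The number of higher neuron genes was 11 without P8 input 2 and P14 input 1, and between 6 and 19 with 1 library left out, with 6 to 9 without 10wk input 1, 10wk input 3 or either P8 library. edgeR called 3 neuron genes higher and DESeq2 called 8, where 3.55 and 7.48% of all genes were higher. The 6-week libraries alone called none (0.0355% of all).

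Calls among myelin and Schwann cell genes depended on the setting. Of 21 tested, 4 were higher, where 7.0% of all genes were, and none was lower, with a median of 0.53. Mbp, a myelin protein of nerve and brain, averaged 840.3 ± 252 CPM in adult and 621 ± 472 CPM in young libraries. Its groups overlapped, with a P14 library above every adult one, and it was not called. With TMM scaling and by edgeR no gene of the list was called, and DESeq2 called 1. None was called without any 1 of the adult or P8 libraries, and 9 were higher without P14 input 1. With P8 as the only young age 15 were higher, where 18.1% of all genes were. Against P14 alone none was higher and 3 were lower, where 4.93% of all genes were lower. The summed level of the list was 22820 and 16982 CPM at P14, above every adult library (8698 to 12105 CPM). At P8 it was 4690 and 3673 CPM.

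Some markers of brain tissue were higher as well. Of 17 tested genes of central glia and cerebellum, 4 were higher (Cbln3, Cbln1, Pcp2 and Slc17a7), and none was lower, with a median of 0.70. Without P8 input 2 and P14 input 1 it was 2, and with TMM scaling 1. With 1 library left out it was 1 to 4, with 1 without 10wk input 3 or any 1 of the 6-week or P8 libraries. The call of Slc17a7 was lost without any 1 of the adult or P8 libraries (adjusted p up to 0.104). Slc17a7, a vesicular glutamate transporter, is also made by spiral ganglion neurons. Cbln1, a synaptic organiser of cerebellar granule cells, had 101 and 54.0 CPM at 6 weeks and 20.9, 20.3 and 25.2 CPM at 10 weeks, against 4.31 and 3.17 CPM at P8 and 5.75 and 10.4 CPM at P14. Its 6-week libraries were the highest, and all adult libraries were above the young (log2 change 2.33, adjusted p = 0.00610). The summed level of the list was 1161 to 2023 CPM in adult and 552 to 1294 CPM in young libraries. Defining markers of oligodendrocytes and cerebellar granule cells, Mog and Gabra6, were detected in every adult library and were low at 10 weeks. Mog had 10.5 and 18.8 CPM at 6 weeks and 1.32 to 2.19 CPM at 10 weeks. The part of brain tissue in the rise of neuronal genes was not tested.

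Hair cell genes as a list had a median near that of all genes. Of 30 tested, 3 were higher and 2 lower, with a median of -0.02. Higher members numbered 0 without 10wk input 3, 1 without 10wk input 1 and 1 by edgeR. Ocm, the calcium-binding oncomodulin of outer hair cells, fell. Ocm had 51.3 and 56.9 CPM at 6 weeks and 58.5, 59.7 and 74.3 CPM at 10 weeks, against 172 and 105 CPM at P8 and 173 and 134 CPM at P14. All adult libraries were below all young (log2 change -1.44, SE 0.19, adjusted p = 0.00223). Calb2, the calcium-binding calretinin of inner hair cells and neurons, averaged 955 ± 188 CPM in adult and 298 ± 279 CPM in young libraries (log2 change 2.18, adjusted p = 0.0261), and its call was lost without either P8 library and without 3 of the adult libraries (adjusted p up to 0.0821). Slc26a5, which encodes the motor protein prestin and whose locus drives Cre, was not called. Slc26a5 had 8.97 and 6.81 CPM at 6 weeks and 10.9, 9.45 and 9.81 CPM at 10 weeks, against 5.62 and 4.02 CPM at P8 and 4.45 and 6.39 CPM at P14. All adult libraries lay above all young ones, but the difference did not pass the test (log2 change 0.55, adjusted p = 0.162). Rpl22, the gene that Cre tags, averaged 157 ± 29.7 CPM in adult and 118 ± 29.9 CPM in young libraries and was not called (adjusted p = 0.227). Tmc1, the gene of the transduction channel of mature hair cells, averaged 7.93 ± 2.52 CPM in adult and 9.89 ± 3.86 CPM in young libraries and was not called, and Tmc2, which precedes it, was at 0 in all 9 libraries.

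Genes of the stria vascularis and of endolymph transport had a median of 0.35, with 3 of 21 higher and none lower, and 5 higher without P14 input 1 and 6 without P14 input 2. Lrp2, the endocytic receptor megalin of marginal cells, had 2424 and 1732 CPM at 6 weeks and 2054, 2559.5 and 1877 CPM at 10 weeks, against 436 and 416 CPM at P8 and 848 and 1384 CPM at P14. Every adult library was above every young one (log2 change 1.44, SE 0.36, adjusted p = 0.0145). Kcnq1 and Kcne1, which form the channel that secretes potassium into endolymph, averaged 121 ± 20.3 CPM in adult and 137 ± 44.1 CPM in young libraries and 329.9 ± 44.6 CPM in adult and 321 ± 85.5 CPM in young libraries. Their groups overlapped, and neither was called. Without P8 input 2 and P14 input 1 no stria member of the list was called, and Lrp2 then had an adjusted p of 0.0518. Gjb2 and Gjb6, the connexins of supporting cells and fibrocytes, were not called either, at means of 1375 ± 181 CPM in adult and 1681 ± 655 CPM in young libraries and 1135 ± 126 CPM in adult and 895 ± 632 CPM in young libraries.

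Many interferon-stimulated genes were higher in adult cochleae. These genes encode antiviral proteins and are switched on by a complex of factors that includes IRF9 and binds a DNA element built from repeated GAAA. Of 23 tested members, 13 were higher in adults and none was lower, with a median of 1.14 where the median gene is at 0. All but Mx1 of the 13 had groups that did not overlap, and the call of Mx1 was lost without any 1 of 7 libraries, all but 6wk input 1 and P14 input 2 (adjusted p up to 0.129). The promoters of 4 of the 5 called members in which the repeat was found are shown, because these genes were called in the same direction, and that of Ifitm3 is not shown. They are RefSeq sequences of GRCm38.p6 in the sense of the gene, from a stretch of 250 bases before to 50 bases after the start of the gene, and capitals mark GAAA followed after any 2 bases by GAAA, or TTTC followed after any 2 bases by TTTC, which is the same element read on the other strand.
Ifit1 (chr19:34640755-34640843, plus strand): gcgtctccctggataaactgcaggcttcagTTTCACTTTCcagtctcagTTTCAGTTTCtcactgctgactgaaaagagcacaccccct
Ifit3 (chr19:34583343-34583446, plus strand): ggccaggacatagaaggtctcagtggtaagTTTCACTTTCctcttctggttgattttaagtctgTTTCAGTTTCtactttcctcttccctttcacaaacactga
Isg15 (chr4:156200845-156200926, minus strand): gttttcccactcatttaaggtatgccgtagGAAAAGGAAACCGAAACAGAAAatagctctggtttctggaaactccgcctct
Bst2 (chr8:71537557-71537632, minus strand): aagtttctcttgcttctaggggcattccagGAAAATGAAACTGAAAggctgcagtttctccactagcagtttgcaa
In Isg15 and Bst2 several matches overlap. The element was in the promoters of 5 of the 9 called members that had one in the table, Ifit1, Isg15, Ifit3, Bst2 and Ifitm3, and in those of 11 of 17 members of the whole list, called or not. It was in 3.99% of the promoters of all 27025 genes of the table. The motif was chosen after the values were seen, and a match is a description of the letters, not of binding.

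Ifit1 (ENSMUSG00000034459, chr19:34640871-34650009, plus strand), which binds foreign RNA, was the member with the largest change. Ifit1 had 21.9 and 33.7 CPM at 6 weeks and 48.5, 35.2 and 48.7 CPM at 10 weeks, against 1.75 and 0 CPM at P8 and 4.18 and 10.4 CPM at P14. The adult libraries were all above the young, and within the young group P14 was above P8 (log2 change 3.19, SE 0.56, adjusted p = 0.00326). Ifi27l2a, a short membrane protein of the response, had 102 and 127 CPM at 6 weeks and 142, 117 and 157 CPM at 10 weeks, against 4.0 and 7.32 CPM at P8 and 21.4 and 35.6 CPM at P14. The groups did not overlap (log2 change 3.05, SE 0.45, adjusted p = 0.00107). Isg15 encodes a protein that is joined to others like ubiquitin. Isg15 had 11.6 and 17.8 CPM at 6 weeks and 25.1, 17.7 and 44.1 CPM at 10 weeks, against 3.04 and 1.71 CPM at P8 and 0.0605 and 3.44 CPM at P14. It was low in all young libraries (log2 change 2.85, SE 0.49, adjusted p = 0.00273). Irf7, a transcription factor that amplifies the response, averaged 24.1 ± 10.4 CPM in adult and 3.65 ± 2.67 CPM in young libraries, and Bst2, which tethers viruses to the cell, 107 ± 51.4 CPM in adult and 24.6 ± 10.5 CPM in young libraries. Their log2 changes were 2.42 and 1.87, with adjusted p = 0.00580 and 0.00530. Irf9, the gene of a factor that acts on the element, averaged 31.5 ± 3.73 CPM in adult and 19.7 ± 9.67 CPM in young libraries and was not called (adjusted p = 0.135). Between 11 and 14 members were higher with 1 library left out, 11 without P8 input 2 and P14 input 1, 10 by edgeR and 12 by DESeq2. The 10-week libraries alone against young called 10 members, where 1.84% of all genes were higher, and the 6-week libraries alone called none, where 0.0355% of all genes were higher.

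Genes of antigen presentation moved in part with them. Of 8 tested genes of MHC class II, 3 were higher and none was lower. H2-Eb1, a chain of the class II molecule, had 7.44 to 12.0 CPM in adult and 0 to 1.75 CPM in young libraries (log2 change 2.56, adjusted p = 0.00165). Cd74, the chain that guides class II molecules, averaged 27.3 ± 5.62 CPM in adult and 8.23 ± 7.0 CPM in young libraries (log2 change 1.67, adjusted p = 0.0118). Ciita, their master regulator, and H2-Ab1 had groups that overlapped. MHC class I had 3 higher genes of 14 tested, 0 to 6 with 1 library left out and none by edgeR. Without any 1 of the 10-week libraries, 6wk input 1 or P8 input 1 it was 0, and without P14 input 1 it was 6. Few markers of immune cells were called. Of 18 macrophage genes, none was higher and Mrc1 was lower, at 8.66 ± 1.11 CPM in adult and 25.8 ± 12.7 CPM in young libraries. The call of Mrc1 was lost without any 1 of the 10-week libraries or P8 input 1 (adjusted p up to 0.0617). Lower macrophage genes numbered 3 with TMM scaling, 3 by edgeR and 5 by DESeq2, where 5.35, 5.38 and 8.75% of all genes were lower. DESeq2 also called 1 higher, and with 1 library left out 0 to 4 were lower. Of 16 B cell genes none was higher and 2 were lower, Ighm and Rag1. The call of Rag1 was lost without any 1 of the adult or P8 libraries (adjusted p up to 0.120). Ighm, the heavy chain of immunoglobulin M, averaged 10.4 ± 3.08 CPM in adult and 34.5 ± 12.1 CPM in young libraries (log2 change -1.80, adjusted p = 0.00740). None of 5 tested genes of T and NK cells was called in the main test. With TMM scaling, by edgeR and by DESeq2 1 was higher, where 5.98, 3.55 and 7.48% of all genes were. The summed level of all 16 genes of that list, tested or not, was 4.95 to 6.51 CPM in adult and 4.51 to 11.3 CPM in young libraries.

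Clock genes changed in both directions. Of 18 tested, 5 were higher and 1 was lower, with a median of 0.08, and 3 were higher by edgeR and without any 1 of the 10-week libraries, 6wk input 2 or P8 input 2. Nr1d1, which encodes the repressor REV-ERBα, had 109 and 93.8 CPM at 6 weeks and 100.1, 119 and 90.0 CPM at 10 weeks, against 28.6 and 14.3 CPM at P8 and 31.8 and 35.5 CPM at P14. The adult libraries lay together above all young ones (log2 change 1.73, SE 0.24, adjusted p = 5.42e-04). Its relative Nr1d2 averaged 211 ± 38.3 CPM in adult and 91.0 ± 30.5 CPM in young libraries, and Bhlhe41, another repressor, 176 ± 25.7 CPM in adult and 77.8 ± 28.9 CPM in young libraries, at log2 changes of 1.05 and 1.05. Per3 was the member that fell. Per3 had 27.8 and 38.4 CPM at 6 weeks and 39.6, 45.7 and 46.8 CPM at 10 weeks, against 72.4 and 82.2 CPM at P8 and 77.7 and 71.2 CPM at P14. The groups did not overlap (log2 change -1.13, SE 0.19, adjusted p = 0.00946). Arntl and Clock, the activators, were not called. The mice were kept in a cycle of light and dark, the hour of tissue collection is not given in the labels, and its part in these values was not tested. The E-box CACGTG, the same on both strands and the site of the clock activators, was in the promoters of Ciart and Bhlhe41, of 4 higher clock genes with a promoter in the table, and in 8.09% of all. Both are shown with the element in capitals, since they are the called clock genes that hold it. The promoter of Ciart held 3 matches, of which 1 is in the stretch shown.
Ciart (chr3:95882309-95882374, minus strand): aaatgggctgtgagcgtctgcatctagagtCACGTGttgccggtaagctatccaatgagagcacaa
Bhlhe41 (chr6:145865538-145865603, minus strand): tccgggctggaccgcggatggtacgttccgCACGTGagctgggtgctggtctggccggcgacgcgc
Ciart had 4.31 to 12.4 CPM in adult and 1.22 to 4.18 CPM in young libraries (log2 change 1.36, adjusted p = 0.0281), and its call was lost without any 1 of 5 libraries (adjusted p up to 0.0843).

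Genes that respond to glucocorticoids held 4 higher members of 13 tested and 1 lower, with a median of 0.58, and 2 were higher without P8 input 2 and P14 input 1. It was 2 also without 10wk input 2, 10wk input 3, 6wk input 2 or either P8 library. Zbtb16, a transcription factor gene strongly induced by these hormones, had 70.8 and 60.0 CPM at 6 weeks and 53.3, 94.4 and 72.8 CPM at 10 weeks, against 10.7 and 13.5 CPM at P8 and 27.1 and 37.1 CPM at P14. All adult libraries were above all young (log2 change 1.57, SE 0.32, adjusted p = 0.00553). Fkbp5, a cochaperone of their receptor, averaged 57.0 ± 11.4 CPM in adult and 20.6 ± 13.5 CPM in young libraries (log2 change 1.41, adjusted p = 0.0129). Sgk1 and Klf9, other targets, had groups that overlapped and were not called.

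Some markers of tissue around the cochlea were higher. Of 17 skeletal muscle genes tested, 5 were higher and none was lower, with a median of 1.35. Without P8 input 2 and P14 input 1, 3 of them were higher, as without 10wk input 1, 10wk input 2 or P8 input 1. The summed level of the whole list was 40.7 to 194 CPM in adult and 21.3 to 49.8 CPM in young libraries. Atp2a1, the calcium pump of fast muscle, was among the 12 largest rises. Atp2a1 had 1.92 and 22.5 CPM at 6 weeks and 19.4, 10.3 and 2.81 CPM at 10 weeks, against 0.155 and 0 CPM at P8 and 0.0908 and 0 CPM at P14. The adult libraries spread widely, with 6wk input 2 and 10wk input 1 highest (log2 change 2.90, SE 0.60, adjusted p = 0.00702). Of 16 genes of middle ear and airway-type epithelium, 2 were higher, Bpifb1 and Wfdc18, where 7.0% of all genes were. With 1 library left out 1 to 5 were higher, the most without P14 input 2. The call of Bpifb1 was lost without any 1 of 7 libraries, all but 10wk input 1 and P14 input 2 (adjusted p up to 0.0938). The summed level of the list was 224.5 to 1089 CPM in adult and 115 to 289.9 CPM in young libraries, so that the stages overlapped. 6wk input 2, 10wk input 2 and 10wk input 3, at 241, 224.5 and 262 CPM, lay below both P14 libraries, at 267 and 289.9 CPM. The highest sums were 1089 CPM in 6wk input 1 and 563 CPM in 10wk input 1. Sex-linked genes gave no call among 5 tested, and every library of both stages held Xist and Ddx3y. Xist had 26.7 to 82.4 CPM in adult and 34.6 to 88.8 CPM in young libraries, and Ddx3y 47.4 to 67.7 CPM in adult and 21.8 to 52.2 CPM in young libraries.

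The remaining genes among the 12 largest rises belong to none of these groups. Ppp1r1a encodes an inhibitor of protein phosphatase 1. Ppp1r1a had 603 and 498 CPM at 6 weeks and 562, 541 and 473 CPM at 10 weeks, against 19.5 and 4.39 CPM at P8 and 235 and 199 CPM at P14. On the log2 scale the step between P8 and P14 was again the largest (log2 change 3.29, SE 0.84, adjusted p = 0.0208), and its adjusted p was 0.0702 without P8 input 1. Acp1, a phosphatase gene, differed from the others by its even adult level. Acp1 had 18.8 and 19.8 CPM at 6 weeks and 18.9, 20.3 and 20.7 CPM at 10 weeks, against 2.60 and 0.976 CPM at P8 and 0.151 and 0.0555 CPM at P14. P28 had 2.63 and 0.203 CPM, far below every adult library, and the log2 change was 3.40 (SE 0.40, adjusted p = 2.16e-04). Omp encodes the olfactory marker protein. Omp had 38.9 and 18.3 CPM at 6 weeks and 9.15, 8.10 and 38.4 CPM at 10 weeks, against 1.01 and 1.59 CPM at P8 and 0.242 and 2.03 CPM at P14. All adult libraries were above all young (log2 change 3.02, adjusted p = 0.00273). Lancl3 and Clgn were higher too, at log2 changes of 2.99 and 2.87, with P14 input 2 the highest of the young libraries for both.

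The young ages were not alike, and counts of called genes depended on which of them stood against the adults. Against P14 alone, 1267 genes were higher (7.55%) and 828 lower (4.93%) of 16786, and against P8 alone 3060 were higher (18.1%) and 1351 lower (7.99%) of 16903. Both counts use the same adult libraries. For the tectorial membrane, members called lower numbered 9 against P14 and 11 against P8, and for cartilage 14 in each. For fibrillar and mesenchymal matrix they were 18 against P14 and 28 against P8. For neurons, members called higher numbered 11 against P14 and 20 against P8, and for the stria 3 against P14 and 12 against P8. The P28 libraries, in no test, held 175 and 448 CPM of Col2a1, 50.6 and 60.3 CPM of Ibsp, 147 and 126 CPM of Kcnc1 and 30.4 and 23.0 CPM of Ifit1. For each of these genes the P28 libraries lay nearer to the adult than to the young range. The 10-week libraries alone called 313 genes higher (1.84%) and 308 lower (1.81%) against young, and the 2 libraries of 6 weeks alone called 6 higher (0.0355%) and 45 lower (0.266%).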

How the data were processed

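The authors deposited 1 CPM table per library, and the submitters' processing notes name TopHat and GRCm38. The version of TopHat, the counting tool and its use of strand are given in no source used here, so that overlapping, antisense and near-identical genes may share reads. Divided by the value of 1 read, 100% of the values were whole within 0.01, and the whole reads so recovered went into edgeR and DESeq2, which called 1555 and 2828 genes. The tables hold 49671 gene identifiers, of which 49326 had a symbol and a place in GENCODE M21, and 5 entries that name no gene. These 5 took 32.9 to 50.6% of reads in adult and 35.5 to 72.3% in young libraries and were left out.

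CPM was recomputed over gene rows without Gm42418. Genes at 1 CPM or more in at least 2 of the 9 libraries were tested on log2(CPM + 1), a pseudocount of 1, with limma 3.58.1 in R 4.3.3, with 1 mean per stage, a trended prior and two-sided p-values adjusted by Benjamini and Hochberg. The other tools were edgeR 4.0.16, DESeq2 1.42.0 and Python 3.11.15. The procedure was tested on simulated data.

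Members, 46 gene lists (842 genes, 759 tested) and the naming rule were chosen with earlier results of these data known. The rule names the 12 largest called changes each way with non-overlapping groups whose higher stage averaged 5 CPM or more, up to 4 called members each way per list, the label markers, Slc26a5, Rpl22 and reference genes of the lists. Other members named in the text are examples picked after their values were seen. Deviations of same-numbered libraries from the means of their ages correlated at 0.103 or less across ages. At P8, P14 and 6 weeks, with 2 libraries each, the 2 deviations mirror each other. The check therefore cannot tell whether the numbers pair libraries. Promoters are from RefSeq, GRCm38.p6, with 27025 genes. Alternatives were the pseudocount, the filter, scaling, library weights, 1 mean per age, the ages in each stage, a replicate block, edgeR, DESeq2 and leaving out each library; leaving out both libraries that stand apart and the rows that take reads of ribosomal RNA were added after the data were seen. Some genes are not reported here.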

Additional observations from a re-analysis of the deposited data

Results flagged for a closer look

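Among the 195 named genes checked, 23 of 387 groups held a library far from the others of its stage. Chance alone flags about 1 in 20 groups. P14 input 2 was the high library of the young group in 7 of the 23. These were Lancl3 at 7.02 CPM, Pcp2 at 8.50, Tnnc2 at 4.39, Bpifb1 at 1.36, Reg3g at 4.30, Neat1 at 529 and Miat at 83.5 CPM.

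P8 input 1 was the high young library for Car3 at 4732 CPM, Igfbp3 at 142 CPM, C3 at 0.387 CPM and Lyz1 at 0.103 CPM. P8 input 2 was high for Col1a1 at 1103 CPM and low for Tmc1 at 4.15 CPM. P14 input 1 was low for Tgfb1, at 20.9 CPM.

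In the adult group, 6wk input 1 was high for Col4a1 at 58.4 CPM, Ctsk at 34.3 CPM, Ceacam16 at 712 CPM, Mrc1 at 10.6 CPM and Bpifb1 at 9.93 CPM. 6wk input 2 was high for Sox4 at 91.6 CPM and Tpx2 at 3.44 CPM. 10wk input 1 was the only adult library with reads of Oc90, at 0.182 CPM. 10wk input 3 was high for Atp6v0d2 at 0.905 CPM.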

How the results depend on the processing

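The 1220 higher and 562 lower genes moved with nearly every choice. Of 133 named genes called, none reversed under any alternative, and the number that kept its call was 121 with TMM scaling, 123 with quantile normalization, 127 with a pseudocount of 0.25, 96 with edgeR, 117 with DESeq2 and 100 without P8 input 2 and P14 input 1. It was 22 for 6 weeks only, 55 with CPM as deposited, 73 for 10 weeks only, 75 with the replicate block, 85 with no filter and 89 to 132 with 1 library left out. Higher genes numbered 671 with no filter on low values, 380 with CPM as deposited, 717 with library weights, 2157 with 1 mean per age, 3060 against P8 only, 313 for 10 weeks only, 6 for 6 weeks only, 618 with edgeR and 748 without P8 input 2 and with TMM scaling. Lower genes numbered 348 with no filter, 933 with TMM, 1108 with quantile normalization, 76 with CPM as deposited, 232 with CPM over all gene rows, 863 with 1 mean per age, 1351 against P8 only, 308 for 10 weeks only, 45 for 6 weeks only, 937 with edgeR and 1524 with DESeq2. They numbered 977 without P8 input 2 and P14 input 1, 907 with TMM scaling added and 857 without the rows that take reads of ribosomal RNA. Leaving out 1 library gave 516 to 2013 higher genes (516 to 704 without 1 of the 5 adult libraries, most without P14 input 2) and 304 to 757 lower (fewest without 10wk input 1, most without P14 input 1). The replicate block, which groups libraries by number, gave 347 higher and 233 lower genes, and 293 higher with TMM scaling added. Whether the numbers pair the libraries is not known. The share of called genes that were higher was 68.5%, against 52.8% with TMM, 51.3% with quantile normalization, 83.3% with CPM as deposited, 39.7% with edgeR and 46.1% with DESeq2. The median gene moved between -0.03 and 0.55 on the log2 scale over these settings. Ceacam16, which was not called, reversed to -1.05 against P14 only, -0.177 with edgeR and -0.150 with DESeq2. The causes of these shifts were not tested. Genes near 1 CPM, such as Col19a1 or Mx1, rest on few reads.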

Other observations

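Some vessel genes were called. Of 18 genes of endothelium and pericytes, 3 were lower in adult cochleae and 1 was higher, where 3.22% and 7.0% of all genes were. The median log2 change was -0.31 relative to the median gene. Without P8 input 2 and P14 input 1, and without P14 input 1 alone, 5 were lower. Kdr, a receptor of vascular endothelial growth factor, had 16.7 to 20.3 CPM in adult and 37.2 to 47.3 CPM in young libraries (log2 change -1.36, limma adjusted p = 0.00409). Plvap, a protein of the pores of leaky capillaries, had 8.56 to 17.2 CPM in adult and 30.5 to 58.0 CPM in young libraries (log2 change -1.88, limma adjusted p = 0.00402). Myh11, a smooth muscle myosin, was the higher member, with 2.35 to 7.74 CPM in adult and 0.0605 to 2.20 CPM in young libraries. Without P8 input 2 and P14 input 1 its limma adjusted p was 0.0660. Its call was also lost without any 1 of 6 libraries (limma adjusted p up to 0.102), with TMM scaling, by edgeR and by DESeq2.

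Of 80 ribosomal protein genes tested, a family picked by symbol after its values were seen, 7 were lower and none was higher, with a median of -0.38. Of 9 melanocyte genes, Slc45a2, a pigment gene, was higher, at 96.3 to 141 CPM in adult and 20.9 to 89.1 CPM in young libraries. Its call was lost without any 1 of the 10-week libraries, 6wk input 1 or P8 input 1 (limma adjusted p up to 0.0710), 0 to 5 members were higher with 1 library left out, and edgeR called none. The complement gene C3 had 2.0 to 3.45 CPM in adult and at most 0.387 CPM in young libraries (log2 change 1.56, limma adjusted p = 0.00610), and the other 15 complement genes were not called.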
